A study of Homo sapiens with 6 samples.

Results

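Stretches of the genome shorter than 1 Mb that carried both lamin B1 and LC3 were described in IMR90 cells, a line of human lung fibroblasts. They were chosen by intersecting the deposited domain lists of 4 chromatin immunoprecipitation sequencing (ChIP-seq) samples, 2 replicates precipitated with an antibody against lamin B1 and 2 with an antibody against LC3. A contiguous stretch was kept where all 4 lists had a domain and its length was under 1000000 bases. The rule kept 200 of 470 shared stretches (42.6%). All samples came from untreated cells of 1 line grown in 3% oxygen, with no other genotype, agent or time, and the 2 input samples of the series were not analysed here. Cells were fixed with 1% formaldehyde for 5 min and their chromatin was sheared to about 250 bp on average. Whether the replicates were separate cultures is not stated in the labels, and what separates 2 replicates may be technical.

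Lamin B1 is a filament protein of the nuclear lamina, the meshwork under the inner nuclear membrane. Chromatin that touches this meshwork forms lamina-associated domains, which are mostly late replicating and poor in active genes. LC3 is a small ubiquitin-like protein that becomes attached to lipid and then decorates autophagosome membranes, where it binds cargo receptors. A part of it resides in the nucleus, and the series bears the title of a study on breakdown of the lamina by autophagy. The comparison asked where on the chromosomes both proteins were found together over short distances. The lists give the position of each domain and no height, score or read number, so the depth behind each domain is unknown. Genes and sequences at the stretches were not analysed here, because no genome or annotation of the build of the files, GRCh37/hg19, was used.

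The short stretches were numerous but made up little of the shared sequence. Together they covered 130 Mb, which is 12.5% of the 1040 Mb found in all 4 lists. Their median length was 660.5 kb, with an interquartile range of 480.75 to 822.25 kb. No stretch was a sliver left by 2 domains that barely met: the shortest measured 252 kb, and 0 of the 200 were under 250 kb. In all, 57 were under 500 kb and 19 were over 900 kb. The longest lay on chromosome 6 from 160325001 to 161320000 (995 kb), chromosome 7 from 131405001 to 132388000 (983 kb), chromosome 10 from 121947001 to 122925000 (978 kb), chromosome 4 from 190065001 to 191035000 (970 kb) and chromosome 8 from 23812001 to 24780000 (968 kb). Just outside the limit lay stretches of 1013 kb on chromosome 14, 1018 kb on chromosome 10 and 1026 kb on chromosome 1. Lengths ran through the limit without a gap, and a further 120 shared stretches measured between 1 and 2 Mb. The lengths chose these stretches and were therefore not tested, and the same holds for all other values taken from the 4 lists.

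Short shared stretches nearly filled their lamin B1 domains in the median and often lay in longer LC3 domains. The lamin B1 domain around a stretch had a median length of 0.849 Mb in replicate 1 and 0.802 Mb in replicate 2. The LC3 domain had a median length of 1.195 Mb in replicate 1 and 1.143 Mb in replicate 2. Both LC3 medians thus lay above both lamin B1 medians, and the upper quartiles were further apart, at 1.07 and 0.984 Mb in the lamin B1 lists and 3.01 and 3.55 Mb in the LC3 lists. The stretch filled a median of 88.8% and 96.0% of its lamin B1 domain, but 51.5% and 57.8% of its LC3 domain. Stretch by stretch, both LC3 domains were longer than both lamin B1 domains at 113 of 200, and both lamin B1 domains were longer than both LC3 domains at 25. At the other stretches the lengths of the antibodies overlapped. LC3 domains were longer on average over the whole lists too. There, 437 and 475 LC3 domains covered 1403 and 1484 Mb, and 613 and 593 lamin B1 domains covered 1400 and 1384 Mb. Longer LC3 domains are thus not particular to short stretches.

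Counted by the same limit, the lamin B1 domain was under 1 Mb at 134 stretches in replicate 1 and at 154 in replicate 2, whereas 43.6% and 44.5% of all domains in these lists were under 1 Mb. The LC3 domain was under 1 Mb at 85 stretches in replicate 1 and at 90 in replicate 2, and 28.6% and 39.8% of all domains in these lists were under 1 Mb. The rule favours short domains, so nothing is read from these shares. Many short domains held no shared stretch. Of the domains under 1 Mb, 134 of 267 in lamin B1 replicate 1 and 154 of 264 in lamin B1 replicate 2 contained a stretch common to all 4 lists. The same was true of 85 of 125 in LC3 replicate 1 and 90 of 189 in LC3 replicate 2.

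The containing domains sorted the stretches into 5 classes, with a domain called long from 1 Mb upward. At 54 stretches (27%) the containing domain was under 1 Mb in every list, and these are called compact below. At 43 (21.5%) both LC3 domains were long and both lamin B1 domains were not. The reverse was found at 7 (3.5%), and at 5 (2.5%) all 4 domains were long but overlapped by less than 1 Mb. At the remaining 91 (45.5%) the replicates of at least 1 antibody fell on different sides of 1 Mb. Where both replicates of each antibody fell on the same side of 1 Mb, long domains of LC3 alone were found at 43 stretches. Long domains of lamin B1 alone were found at 7. Such replicates could still differ in length. At a stretch of 844 kb on chromosome 12 from 71076001, chosen after its values were seen, the LC3 domains measured 1.845 and 22.296 Mb.

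**Figure D1:**
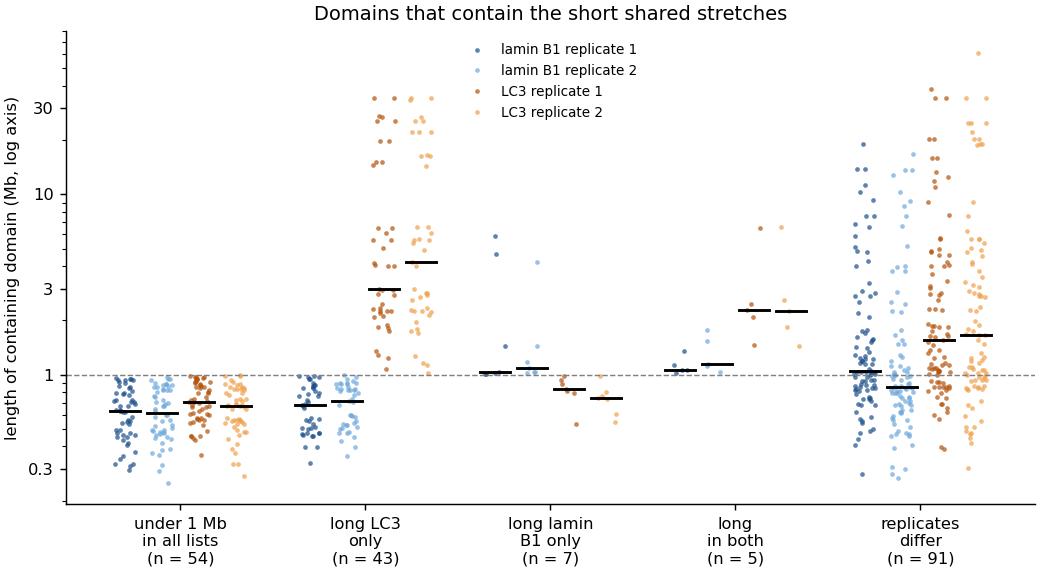
Length of the domain that contains each short shared stretch (Mb, log axis), in each of the 4 lists and by class of stretch. Each point is 1 stretch, black bars are medians and the dashed line is at 1 Mb. In the class with long LC3 domains only, the LC3 medians are 3.005 and 4.218 Mb and the lamin B1 medians 0.681 and 0.716 Mb.

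The 54 compact stretches were domains in their own right for both proteins. Their median length was 527.5 kb, and the containing domains had lamin B1 medians of 0.630 and 0.616 Mb and LC3 medians of 0.705 and 0.671 Mb. The longest of the 4 domains at a compact stretch was, in the median, 1.25 times the shortest. The closest match of the 4 lists was on chromosome 22 from 22998001 to 23469000, where the lamin B1 domains measured 474 and 484 kb and the LC3 domains 485 and 483 kb. Here the 4 starts fell within 13 kb and the 4 ends within 3 kb, and it was the only stretch on chromosome 22 that all lists shared. Nearly as close were the stretches on chromosome 8 from 102575001 to 103204000, where starts fell within 3 kb and ends within 17 kb, and on chromosome 6 from 137385001 to 138050000, with 3 and 25 kb. The next were on chromosome 6 from 159460001 to 159984000 (25 and 27 kb) and on chromosome 9 from 41848001 to 42610000 (28 and 2 kb). Domains are placed on bins of 3 to 5 kb, so several of these edges coincided to within a few bins.

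The longest compact stretches lay on chromosome 3 from 179568001 to 180464000 (896 kb), chromosome 2 from 239868001 to 240720000 (852 kb), chromosome 12 from 13323001 to 14175000 (852 kb), chromosome 5 from 90785001 to 91635000 (850 kb) and chromosome 18 from 47358001 to 48195000 (837 kb). On chromosome 3 the lamin B1 domains measured 897 and 896 kb and the LC3 domains 965 and 930 kb. Both LC3 domains thus reached slightly further, and they did so at the start of the stretch, where the lists were spread over 68 kb, while the ends fell within 1 kb. On chromosome 5 the lamin B1 domains measured 852 and 872 kb and the LC3 domains 850 and 906 kb, so that neither antibody had the longer domains. Among all compact stretches, both LC3 domains were longer than both lamin B1 domains at 22 and shorter at 6.

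Most compact stretches lay at a distance from other domains, which was not compared with that at other stretches. From the outermost edge of the 4 containing domains to the next domain of any list, the median distance on the nearer side was 646 kb, with an interquartile range of 276.25 to 1013.25 kb. At 32 of the 54, at least 500 kb on each side held no domain of any list, and at 15 at least 1 Mb did. At 9 another domain came within 100 kb, and at 1 of these it reached inside the outermost edge. The most remote, chosen after its values were seen, was a stretch of 432 kb on chromosome 16 from 70890001 to 71322000, with 4376 kb free of domains before it and 4622 kb after it. At 0.5 Mb from the centre of compact stretches, lamin B1 was present in 10.2% and 14.8% of cases and LC3 in 19.4% and 12.0%. At 3 Mb lamin B1 had returned to 48.1% and 43.5% and LC3 to 45.4% and 44.4%. A fall near the stretch in every list follows from the definition of the class, whose domains are all under 1 Mb. The number of compact stretches rests on LC3 replicate 1: without that list it was 90, and without any 1 of the other lists it was 60 to 64. With a list left out, fewer domains have to be short, so a higher count follows in part from the definition.

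**Figure D2:**
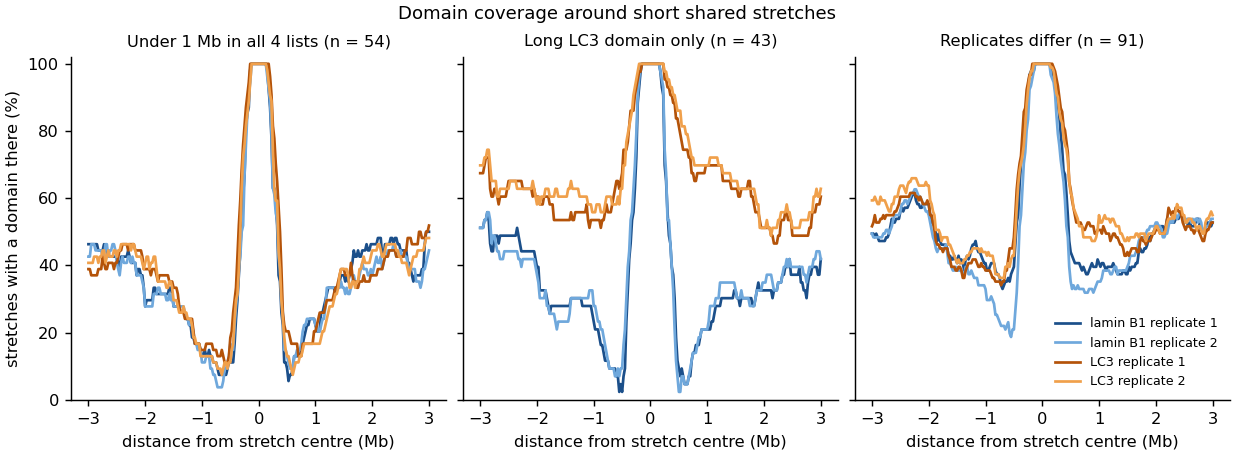
Percent of short shared stretches with a domain of each list at a given distance from the stretch centre (Mb), for 3 classes of stretch. At 0.5 Mb the 4 lists are at 10.2% to 19.4% around compact stretches, and around stretches in long LC3 domains lamin B1 is at 5.81% and LC3 at 74.4% in both replicates. The classes were formed by domain length, which fixes these falls in part.

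At the 43 stretches with long LC3 domains only, lamin B1 formed a short domain and LC3 went on beyond it. The lamin B1 domains had medians of 0.681 and 0.716 Mb, and the stretch filled a median of 97.9% and 96.6% of them. The LC3 domains had medians of 3.005 and 4.218 Mb, of which the stretch filled 16.4% and 14.6%. At 26 of the 43, both LC3 domains ran beyond both lamin B1 domains at each end, and at 15 they did so at 1 end. Thus some were islands of lamin B1 inside an LC3 domain, and others sat at its border. At 27 of the 43, both LC3 domains also held at least 1 other shared stretch. On chromosome 8 from 23812001 to 24780000 the difference was small, with lamin B1 domains of 969 and 968 kb and LC3 domains of 1245 and 1155 kb. It was large on chromosome 5 from 91880001 to 92493000, with 690 and 900 kb of lamin B1 in LC3 domains of 34.095 and 34.083 Mb.

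That LC3 domain of chromosome 5 held the most short stretches of any domain in the 4 lists. It ran from 91695001 to 125790000 in LC3 replicate 1 and to 125778000 in replicate 2, and contained 4 short and 2 longer shared stretches. The short ones measured 613, 714, 750 and 888 kb. The first 3 followed each other from 91880001 to 97110000 with gaps of 1611 and 1542 kb between them, and a further 1314 kb separated the third from a shared stretch of 19.7 Mb. The fourth, from 124440001 to 125328000, lay near the far end of the LC3 domain, 2436 kb after a shared stretch of 3.195 Mb. At the third and the fourth the lamin B1 domain was short in replicate 1 (0.750 and 0.888 Mb) and long in replicate 2 (1.26 and 1.284 Mb), so these 2 belong to the class on which replicates differed. LC3 was unbroken over the whole distance in both replicates, whereas lamin B1 was interrupted between each of the 4 and its neighbours in both.

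The longest containing domains were found on chromosome 4, at the stretch from 113924001 to 114312000. It measured 388 kb and lay in LC3 domains of 38.53 and 60.957 Mb, which held 5 and 10 other shared stretches. The lamin B1 domain here was 0.438 Mb in replicate 1 and 5.144 Mb in replicate 2. On chromosome 2 the stretch from 187842001 to 188385000 lay in an LC3 domain of 20.145 Mb in both replicates, with lamin B1 domains of 0.543 and 16.8 Mb. At both, 1 lamin B1 list had joined the stretch to its surroundings and the other had not. The remaining 3 stretches with the longest containing domains were those named on chromosome 5 from 91880001, 96360001 and 124440001.

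Long lamin B1 domains around short LC3 domains were rarer. At the 7 stretches of this class the lamin B1 domains had medians of 1.032 and 1.084 Mb, close to the limit, and the LC3 domains 0.830 and 0.744 Mb. Their number is too small to describe further as a group, but 2 lay on chromosome 14 and 2 on chromosome X. The 5 stretches at which all 4 domains were long lay on chromosome 1 from 219033001 to 219915000, chromosome 2 from 30942001 to 31815000, chromosome 6 from 22911001 to 23805000, chromosome 8 from 68744001 to 69624000 and chromosome 12 from 44355001 to 45275000. They measured 873 to 920 kb. On chromosomes 2 and 6 the domains were staggered, lamin B1 reaching further at 1 end and LC3 at the other. At the other 3, both LC3 domains ran beyond both lamin B1 domains at 1 end.

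**Figure D3:**
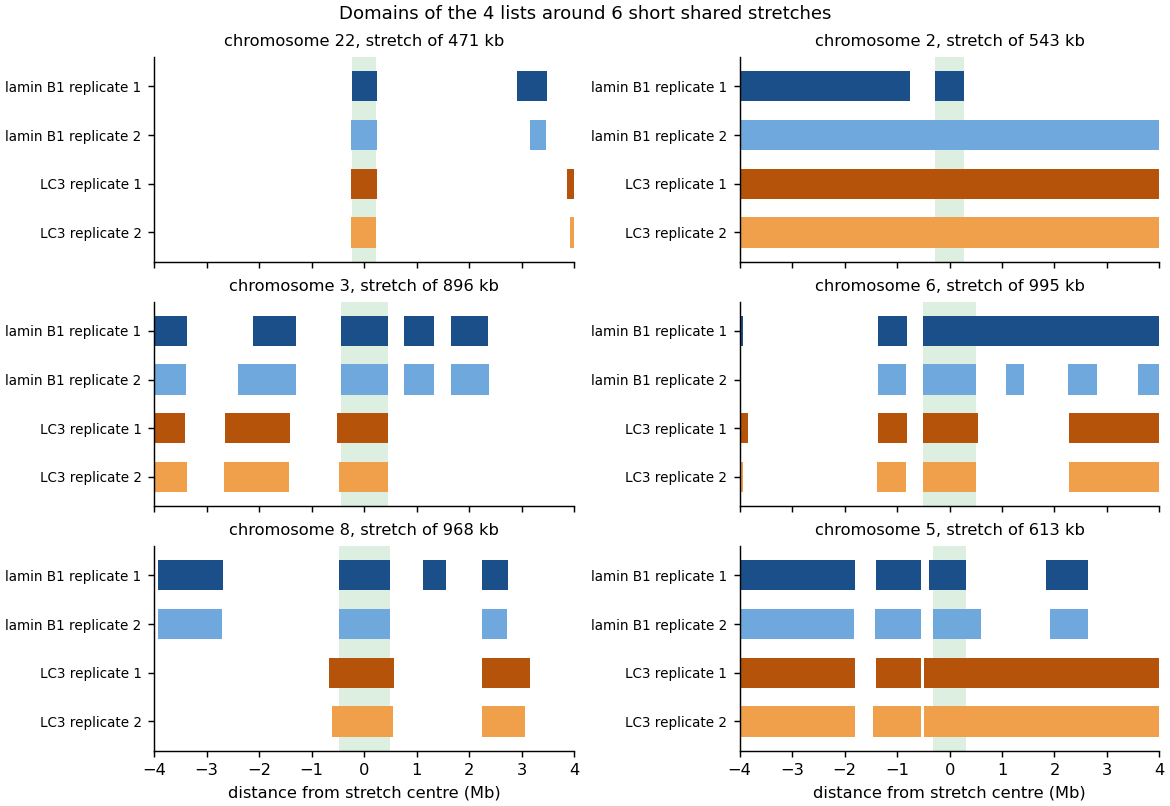
Domains of the 4 lists within 4 Mb of the centre of 6 short shared stretches (green band). Left, stretches of 471 kb on chromosome 22, 896 kb on chromosome 3 and 968 kb on chromosome 8; right, stretches of 543 kb on chromosome 2, 995 kb on chromosome 6 and 613 kb on chromosome 5. On the left all 4 domains end near the band; on the right at least 1 list runs on past it.

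Replicates of 1 antibody often drew the domain around a short stretch differently. The rule favours such stretches, since a break in any 1 of the 4 lists can make a shared stretch short. Only lamin B1 replicate 2 had a short domain at 26 stretches and only lamin B1 replicate 1 at 17. For LC3 replicates 1 and 2 the counts were 10 and 7. At shared stretches of at least 1 Mb every containing domain is long by definition, so no share can be set beside these counts. Lamin B1 replicates fell on different sides of 1 Mb at 54 stretches and LC3 replicates at 43, with 6 counted under both. For lamin B1 the longer domain was in replicate 1 at 37 and in replicate 2 at 17, and for LC3 in replicate 1 at 24 and in replicate 2 at 19. Only part of this was a matter of lengths close to the limit. The longer domain was at most 1.5 times the shorter at 15 of the 54 for lamin B1 and at 16 of the 43 for LC3. It was over 5 times the shorter at 18 and 9, and the median ratio was 2.83 for lamin B1 and 2.19 for LC3. The stretch of 995 kb on chromosome 6 shows the large kind, with lamin B1 domains of 7617 and 996 kb beside LC3 domains of 1030 and 999 kb. The stretch of 970 kb on chromosome 4, the last shared stretch of that chromosome, shows the small kind, with 972 and 1096 kb of lamin B1 and 1095 and 1098 kb of LC3. A stretch of 308 kb on chromosome 2 from 178452001 to 178760000, chosen after its values were seen, lay in lamin B1 domains of 11.265 Mb in replicate 1 and 0.308 Mb in replicate 2. The domains of LC3 around it measured 20.145 Mb in both replicates. Replicates also differed at 2 of the 5 shortest stretches, by large amounts: 268 kb on chromosome 18 from 45536001 (lamin B1 domains of 1221 and 268 kb, LC3 domains of 1645 and 1665 kb) and 280 kb on chromosome 3 from 37516001 (282 and 280 kb, 1855 and 303 kb). The other 3 of the 5 shortest were compact and lay on chromosome 7 from 26424001 (252 kb), chromosome 8 from 7569001 (273 kb) and chromosome 12 from 114453001 (287 kb).

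The borders of short stretches were set by lamin B1 more often than by LC3. A stretch begins at the last of the 4 starts and stops at the first of the 4 ends. Of 400 such edges, 257 (64.3%) were set by lamin B1 alone and 114 (28.5%) by LC3 alone, and at 29 (7.25%) lists of both antibodies tied. By list, lamin B1 replicate 2 alone set 141 edges and replicate 1 alone 104, against 55 for LC3 replicate 1 and 53 for replicate 2. Both lamin B1 lists were above both LC3 lists in this count. Shared stretches of at least 1 Mb had nearly the same division, with 64.3% of 540 edges set by lamin B1 and 30.7% by LC3, so the division was close to that of the short ones. When edges within 10 kb of each other were taken as tied, lamin B1 set 52.8% of the short stretches' edges and LC3 18.25%. In the class with long LC3 domains only, lamin B1 set 75 of 86 edges, which follows from how the class was formed. Among compact stretches, where no antibody was chosen to be longer, it set 66 of 108 and LC3 set 32. With edges within 10 kb taken as tied, lamin B1 set 43 of these, LC3 set 15 and both antibodies tied at 50.

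Nesting was taken from the same starts and ends, so it restates the edge count in another form and is no separate support. Both LC3 domains ran beyond both lamin B1 domains at each end at 44 of 200 stretches and at 1 end at 69. Both lamin B1 domains ran beyond both LC3 domains at each end at 9 and at 1 end at 21. At 13 the antibodies were staggered, and at 44 neither end separated the replicates of one from those of the other. For stretches of at least 1 Mb the share with LC3 beyond at each end was 24.8%, against 22% for the short ones.

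Distances between the edges of the 2 proteins were smaller at compact stretches than at the others. At compact stretches the median distance between the edges of the lamin B1 replicates was 7 kb and that between the LC3 replicates 14 kb. From a lamin B1 edge to an LC3 edge it was 11 to 24.5 kb over the 4 pairs. All 4 combinations of antibodies were thus further apart than the lamin B1 replicates, and 3 of the 4 were further apart than the LC3 replicates, with medians of 16.5, 23 and 24.5 kb. At the other short stretches the replicates still ended near each other, with a median of 24 kb in lamin B1 and 28.5 kb in LC3, but the medians between antibodies were 231.5 to 317.5 kb. In compact stretches an edge cannot move far before the domain reaches 1 Mb, so part of this contrast follows from the definition. Within 10 kb of each other were 53.7% of compact edges for the lamin B1 replicates, 44.4% for the LC3 replicates and 36.1% to 49.1% for the pairs of antibodies.

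**Figure D4:**
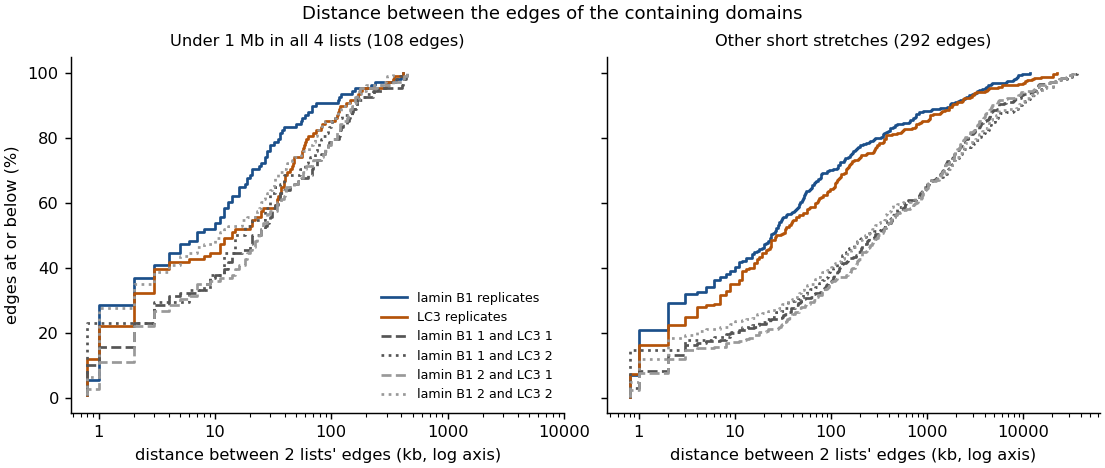
Cumulative percent of domain edges whose distance between 2 lists (kb, log axis; distances of 0 are drawn at the left end) is at or below a given value. Solid lines are replicates of 1 antibody and broken lines are the 4 combinations of lamin B1 with LC3. The lines lie closer together for compact stretches, with medians of 7 to 24.5 kb, than for the other short stretches.

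Short stretches lay about a megabase from the nearest other shared stretch. The median distance was 1073 kb, with an interquartile range of 540 to 2043.5 kb, and for shared stretches of at least 1 Mb it was 1243 kb. The nearest neighbour was itself short at 88 and at least 1 Mb long at 111 of the 199 stretches that had a neighbour on their chromosome. Of the 200, 69 had no short stretch as next neighbour on either side, 98 had 1 and 33 had 2. They formed 118 runs of consecutive short stretches, of which 69 were single and 8 held at least 4. Short stretches made up 42.6% of all shared stretches, so short neighbours are common in any order. The neighbour counts lay near that share, and no clustering is read from them or from the runs. The longest run had 6 stretches at the end of chromosome 2 from 223952001 to 241748000, measuring 448, 826, 918, 823, 852 and 875 kb. No list joined any of these 6 to the next. Short stretches also held 24 of the 44 outermost positions, that is, the first or last shared stretch of the 22 chromosomes with any. These were 23 stretches, since the single shared stretch of chromosome 22 counts as both first and last. Beside a share of 42.6% among all shared stretches, nothing is read from this count.

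Between a short stretch and its neighbour most gaps were open in all lists. There were 294 such gaps, and in 210 (71.4%) no list had a single domain that ran across. These gaps had a median of 2430 kb, of which lamin B1 covered a median of 7.54% and LC3 14.2%. Both LC3 lists and no lamin B1 list bridged 37 gaps (12.6%), which had a median of 931 kb and a median lamin B1 coverage of 3.73%. Both lamin B1 lists and no LC3 list bridged 4. In 28 at least 1 list of each antibody ran across, in 12 a single LC3 list and in 3 a single lamin B1 list. So where 1 antibody joined a short stretch to its neighbour in both replicates, it was LC3 in 37 of 41 gaps. Between 2 shared stretches of at least 1 Mb, both LC3 lists alone bridged 23 of 154 gaps (14.9%) and both lamin B1 lists alone bridged 4, so bridging by LC3 was found at long stretches too. Counted by stretch, 120 of the 200 shared no containing domain with another stretch in any list, including all 54 compact ones. A further 35 shared a containing domain with another stretch in both LC3 lists and in neither lamin B1 list. For 4, this held in both lamin B1 lists and in neither LC3 list.

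Short stretches were found on 22 of 23 chromosomes, and on chromosome 19 no stretch of any length was common to all lists. The highest counts were 18 on chromosome 1, 17 on chromosome 5 and 15 each on chromosomes 2 and 3. Relative to the span from the first to the last domain of any list, chromosome 14 came first with 13.6 per 100 Mb, ahead of chromosome 12 with 10.7, chromosome 11 with 9.77 and chromosome 5 with 9.70. The fewest were on chromosome 17 with 1.49 per 100 Mb, chromosome 22 with 2.94 and chromosome 16 with 3.76. These last 3 have few shared stretches of any length, 3, 1 and 6. As a share of the shared stretches of a chromosome, short ones ranged from 24.2% on chromosome 4 (8 of 33) to 60% on chromosome 14 (12 of 20) among chromosomes with at least 10 shared stretches. On chromosome 14 they made up 25.6% of shared length and 4.62% on chromosome 4. All chromosomes share the same 4 lists and are not replicates, so these differences were not tested.

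Compact stretches were found on 18 chromosomes, with 6 each on chromosomes 8 and 12 and 5 each on chromosomes 1 and 15. Chromosome 15 had 5 compact stretches among 7 short ones, and chromosome 13 had none among 6. Stretches in long LC3 domains only were most frequent on chromosome 1, with 7, chromosome 11, with 6, and chromosome 8, with 5. Chromosome X had 9 short stretches: 2 were compact, 2 lay in long lamin B1 domains only, 0 in long LC3 domains only, and at 5 the replicates differed. Counts of this size do not give an order between chromosomes.

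**Figure D5:**
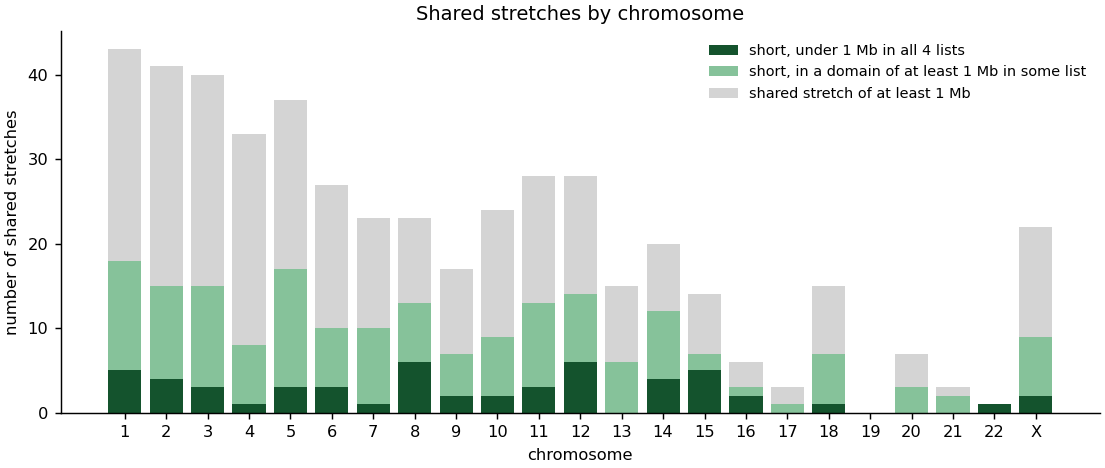
Number of stretches common to all 4 lists on each chromosome, split into compact short stretches, other short stretches and stretches of at least 1 Mb. Chromosome 14 has 12 short stretches of 20 and chromosome 4 has 8 of 33.

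Leaving out a list can only lengthen a stretch, and it often did. Both edges stayed in place at 109 of the 200 without lamin B1 replicate 1, at 85 without lamin B1 replicate 2, at 151 without LC3 replicate 1 and at 153 without LC3 replicate 2. Most stretches nevertheless kept under the limit. With lamin B1 replicate 1 left out, 182 of the 200 remained under 1 Mb and 18 became longer, and with lamin B1 replicate 2 left out 175 remained. With LC3 replicate 1 left out 187 remained, and with LC3 replicate 2 left out 193. Leaving out LC3 replicate 1 also added 41 short stretches where the 4 lists had no shared base, 4 of them on chromosome X, against 11 to 13 for the other lists. LC3 replicate 1 is the list with the fewest domains (437, against 475 to 613) and the coarsest bins (5 kb). The part of bin size and of domain number in these differences was not tested.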

How the data were processed

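Each deposited list gives chromosome, start and end of the domains of 1 replicate and no score. The submitters' processing notes name Bowtie2, bedtools and bcl2fastq 2.16.0.10, with build GRCh37/hg19. EDD, a broad-domain caller that can bridge short unenriched stretches, appears in the name of each list. For its settings, the use of input and read filters, nothing is given in the sources used here. Starts and ends are multiples of 3, 4, 5 and 3 kb in lamin B1 replicates 1 and 2 and LC3 replicates 1 and 2.

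Lists were intersected base by base with Python 3.11.15 and NumPy 2.4.6, and positions are 1-based. For each stretch the domain containing it was found in each list. The method recovered 100% of 230 stretches planted in simulated lists. The planted domains were widely spaced, had simple edges and held 1 stretch each. The simulation thus checked the intersection and the classes in an easy setting, and not edges, nesting, neighbours or bridging. The stretches and all classes were chosen with earlier results of these data known, and the lists that chose them also gave the values, so no test was made. Named regions were the 5 longest and 5 shortest stretches, the 3 nearest 1 Mb on each side, the 5 longest compact ones, the 5 with the smallest edge spread, the 5 with the longest containing domains (median of 4 lists), and all on chromosomes where every shared stretch was short. Others are said to be chosen after their values were seen, or belong to a count of 5 or fewer, to a domain described whole or to the longest run. That run was also picked after the values were seen. Alternatives were other length limits, merging, autosomes only, omission of each list, other cutoffs for compact stretches, and same-numbered pairs. Gene density and gene families were planned and not run, since no annotation of the build was used.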

Additional observations from a re-analysis of the deposited data

How the results depend on the processing

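Of 39 values under alternative settings, 29 stayed within 1.5 times the main count or within 1 SD of the same-numbered pairs. Of the 29, at least 4 could not have moved: the minimum of 100 kb removes no stretch, since the shortest is 252 kb, and the limit of 2 Mb adds no compact one. Restriction to autosomes had little room to move the counts, since chromosome X held 9 short and 2 compact stretches. The SD was taken from the 2 same-numbered pairs, so the medians and edge shares of these pairs were set against their own spread. The 29 are therefore no measure of robustness. The number of short stretches was 57 with a limit of 500 kb and 320 with 2 Mb, and their median length was 448 and 845.5 kb. When 1 list at a time was left out, the number ranged from 188 to 228, the median from 622 to 676 kb and the compact stretches from 60 to 90. Of the 54 compact stretches, 22 were themselves under 500 kb, with the limit of 1 Mb kept for their domains. Compact stretches numbered 106 when containing domains could reach 2 Mb, and 45 after merging of domains less than 100 kb apart. With edges within 10 kb counted as tied, LC3 set 18.25% of edges. For the replicate block, that is, the pair of lists with replicate number 1 or 2 alone, added after the lists had been seen, the numbers were 188 and 225 short stretches, 72 and 109 compact ones, medians of 679.5 and 636 kb, and 26.1% and 31.3% of edges set by LC3. Gene density and stricter domain scores were not run. Depth is unknown, which bounds the meaning of a missing domain.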
